A study of Mus musculus with 8 samples.

Results

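The tumour necrosis factor (TNF) superfamily, the secreted and membrane-bound ligands of the TNF type and their receptors, was followed across 4 groups of mouse bone marrow cells. Its genes were found by name alone: every non-control probe whose gene name starts with Tnfsf or Tnfrsf, with Tnf, Lta, Ltb, Fas, Fasl, Cd27, Cd70 and Ltbr added. This gave 49 of 55681 probes, which stood for 38 of 34787 gene names, 15 of them ligands and 23 receptors. Of the 38 genes, 35 (13 ligands and 22 receptors) passed the filter on dim probes, which asks for a signal well above background on each array of some group, and entered the fit of 26504 genes. The other 3 were Cd70, the ligand of CD27, which was well above background on 1 array each of the control, IL-4 and LPS groups, Tnfrsf8 (CD30), which was so on LPS replicate 2 only, and Tnfsf11 (RANKL), which was so on no array. No values are given for them below.

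Bone marrow derived macrophages were grown for 7 days with M-CSF, the growth factor of macrophages, and were left in control media or induced with IL4 or LPS for 24 hours. IL-4 is the standard inducer of alternative activation, and LPS, a bacterial cell wall component, of classical activation. Colony cells arose in 7 days from bone marrow seeded on a monolayer of endothelial cells in HSC media. The mice of all groups were on the B6 background and carried Tg(CAG-DsRed*MST)1Nagy, a red fluorescent reporter driven by the CAG promoter. Age, sex and the origin of the endothelial cells are not given in the sources used here, nor is it stated whether endothelial cells were removed before RNA extraction. Substrate and medium changed together between macrophages and colony cells and cannot be told apart. Each group had 2 arrays, and the labels do not say whether these were separate animals or cultures, so every p-value below measures the spread between these samples only.

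TNF family ligands work as trimers, on the cell surface or after being cut from it, and bring 3 receptor chains together. Receptors with a death domain, such as TNFR1 (Tnfrsf1a), Fas, the TRAIL receptor (Tnfrsf10b) and DR3 (Tnfrsf25), can start caspase-driven death, while those without it, such as TNFR2 (Tnfrsf1b), 4-1BB (Tnfrsf9) and CD27, recruit TRAF adaptors and switch on NF-kB. Some members, such as osteoprotegerin (Tnfrsf11b) and the mouse decoy receptors Tnfrsf22 and Tnfrsf23, bind ligand without passing the signal on. In macrophages the family is best known for TNF itself, an early product of contact with bacteria, and for RANK (Tnfrsf11a), which directs the formation of osteoclasts.

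Levels are log2 signals minus the 75th percentile of the array, so that 1 unit is a doubling and levels of the same gene can be set side by side between arrays but not levels of different genes. Between 62.4% and 72.2% of an array's spots stood well above background, the highest share being that of LPS replicate 2, which also held 105 unevenly lit spots against 0 to 5 elsewhere. The median signal was 28.1 to 55.1 intensity units over a local background of 17 to 21. Of the 35 family genes tested, 25 were well above background on all 8 arrays by the probe used, and 30, 29, 30 and 30 were so on both arrays of the control, IL-4, LPS and colony groups. Where a gene was measured on both arrays of a group, those arrays differed by a median of 0.1 and at most 0.94 log2 units. A gene was called higher or lower at a Benjamini-Hochberg adjusted p under 0.05 in the limma fit over all genes. The macrophage markers checked (Adgre1, Csf1r, Cd68, Mertk, Fcgr1, Cd14, Lyz2, Mpeg1 and Itgam) were well above background on every array, 9 of 9, with a log2 summed level of 11 to 11.01 in control, 10.55 to 10.59 with IL-4, 10.66 to 10.87 with LPS and 7.42 to 7.45 in colony cells.

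**Figure D1:**
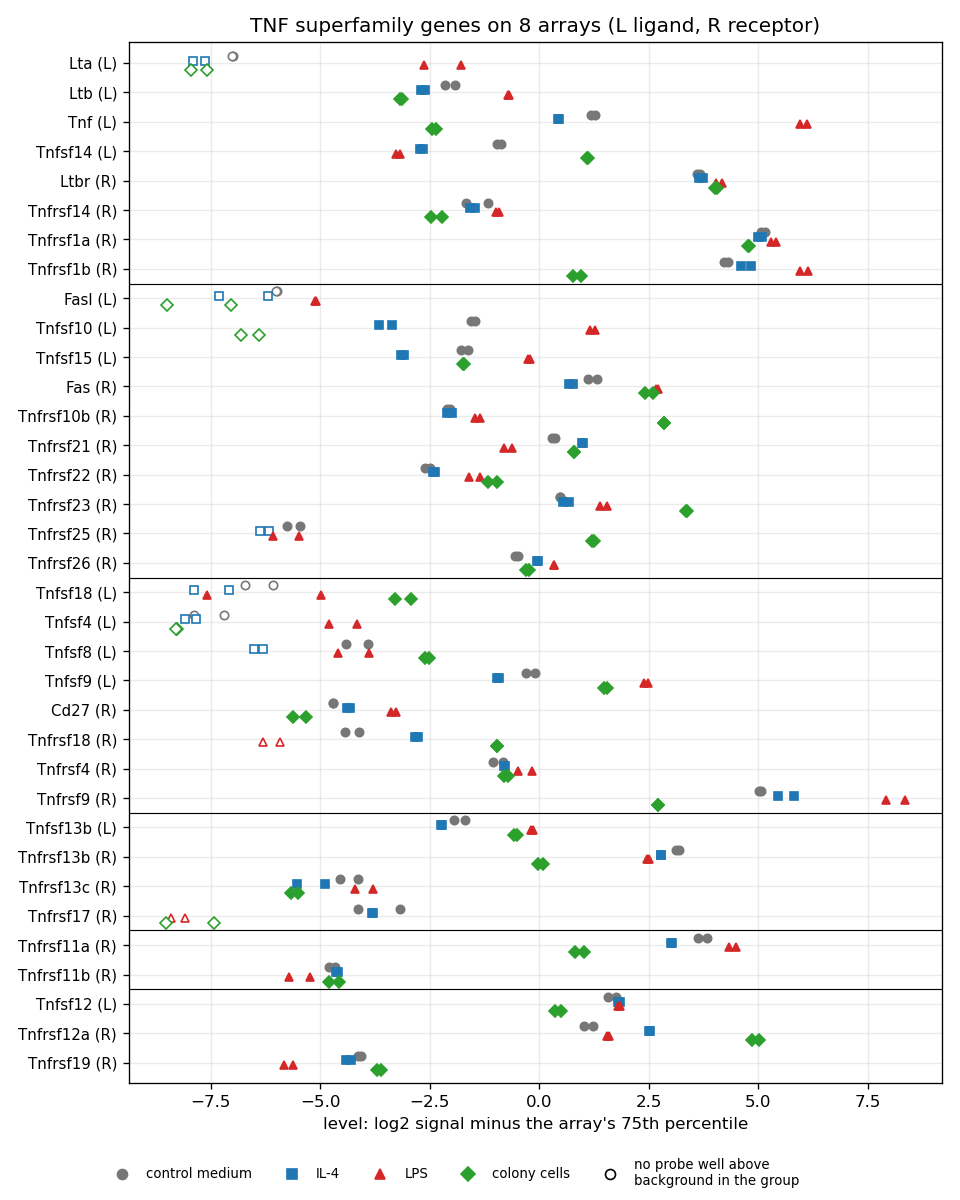
Level of the 35 TNF family genes tested on each of 8 arrays (log2 signal minus the array's 75th percentile, x axis), with ligands (L) and receptors (R) grouped by signalling axis and 2 points per group. Open points mark groups in which no probe of the gene was well above background. Rows are not comparable with each other. Tnf runs from -2.46 in colony cells to 6.11 with LPS.

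LPS raised most of the family. Of the 35 genes, 21 were higher and 7 lower than in control macrophages, where 54.7% of all genes were called, 28.9% higher and 25.8% lower. The median log2 fold change was 0.67 over the family and 0.07 over all genes. Among ligands 8 of 13 rose and 1 fell, with Tnf, lymphotoxin alpha (Lta), TRAIL (Tnfsf10) and 4-1BB ligand (Tnfsf9) in the lead, and among receptors 13 of 22 rose and 6 fell. Of the ligands that rose, Lta and OX40 ligand (Tnfsf4) passed the filter on dim probes through the LPS arrays alone. They were thus selected for being bright there, and their calls are not independent of the filter. In 31 of 35 genes the LPS and control arrays did not overlap, which held for 75.1% of all genes. Centring each array on its median in place of its 75th percentile moved the median of all genes from 0.07 to -0.11, moved the higher share of all called genes from 52.9% to 39.9% and left 16 family genes higher and 7 lower.

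Tnf, the founding member of the family (probe at chr17:35336795-35336854 on mm9), was at 1.26 and 1.17 in control, 0.44 and 0.43 with IL-4, 6.11 and 5.95 with LPS and -2.35 and -2.46 in colony cells. The LPS arrays were the highest, the colony arrays the lowest, and no groups overlapped. Tnf rose 28.2-fold with LPS (log2 4.82 ± 0.09, standard error, n = 2 against 2, adjusted p = 2.1e-06). Its repeated spots on an array spread by an SD of only 0.03 to 0.07 log2 units.

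Lta, which encodes the secreted lymphotoxin and lies beside Tnf (chr17:35340275-35340334), was at -2.64 and -1.79 with LPS. It was not well above background in the other groups, at -7.00 and -7.02 in control, -7.91 and -7.64 with IL-4 and -7.95 and -7.58 in colony cells. It was thus measured with LPS alone and passed the filter on dim probes through those arrays. For such a gene a fold is given as a bound, the mean of the bright group against, on each dim array, the higher of the gene's own signal and the lowest signal well above background there. Lta was at least 14.1-fold higher with LPS than in control (adjusted p = 7.9e-05), and at least 2.41-fold when the background was corrected with normexp.

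Ltb, the membrane partner with which lymphotoxin alpha forms a mixed trimer (chr17:35333097-35333156), was at -1.93 and -2.16 in control, -2.60 and -2.71 with IL-4, -0.69 and -0.72 with LPS and -3.19 and -3.14 in colony cells. The order of the groups was that of Tnf, again without overlap. Ltb rose 2.53-fold with LPS (log2 1.34 ± 0.10, adjusted p = 0.00016). The 3 probes lie within 7.2 kb of each other. LTBR, the receptor of the lymphotoxin trimer and of LIGHT, changed less, by 0.47 ± 0.08 (adjusted p = 0.0044), a call lost with median centring (0.29, adjusted p = 0.087).

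The stretch of 250 bases before the start of each of these genes is shown because the 3 neighbours moved together with LPS, and that of 4-1BB (Tnfrsf9) because it holds a match to the NF-kB site. The sequences are RefSeq's on GRCm38.p6, on the strand of the gene (minus for Tnf and Lta, plus for Ltb and Tnfrsf9), and capitals mark a match, on either strand, to the NF-kB letters, which are GGG, any 2 bases and TTTCC.
Tnf chr17:35202008-35202257: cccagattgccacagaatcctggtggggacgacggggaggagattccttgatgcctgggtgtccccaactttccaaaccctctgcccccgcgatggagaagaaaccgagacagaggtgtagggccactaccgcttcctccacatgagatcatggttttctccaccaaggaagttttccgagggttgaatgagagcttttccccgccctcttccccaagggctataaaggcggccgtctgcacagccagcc
Lta chr17:35205352-35205601: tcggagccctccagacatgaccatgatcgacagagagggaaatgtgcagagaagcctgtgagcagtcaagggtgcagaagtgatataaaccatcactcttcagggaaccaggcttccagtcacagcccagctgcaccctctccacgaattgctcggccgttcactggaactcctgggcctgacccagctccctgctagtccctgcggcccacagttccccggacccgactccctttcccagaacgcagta
Ltb chr17:35194257-35194506: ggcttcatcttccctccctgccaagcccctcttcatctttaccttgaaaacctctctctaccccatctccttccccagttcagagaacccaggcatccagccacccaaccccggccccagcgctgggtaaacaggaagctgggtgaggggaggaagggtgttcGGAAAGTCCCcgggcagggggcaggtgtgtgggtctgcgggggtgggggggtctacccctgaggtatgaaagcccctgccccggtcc
Tnfrsf9 chr4:150927749-150927998: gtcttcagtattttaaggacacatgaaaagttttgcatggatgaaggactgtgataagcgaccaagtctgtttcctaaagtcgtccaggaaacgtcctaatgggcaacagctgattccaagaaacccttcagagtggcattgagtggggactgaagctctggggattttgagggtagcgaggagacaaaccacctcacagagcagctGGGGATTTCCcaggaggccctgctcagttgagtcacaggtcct
The match lies 87 bases before the start of Ltb and 43 before the later of the start sites listed for Tnfrsf9. Of the 34 windows listed for 30 of the 38 genes, 3 held these letters (8.82%), against 464 of 32851 windows of all genes (1.41%), the remaining one being 218 bases before a start of Tnfrsf25. Tnfrsf25 was not called with LPS (-0.16 ± 0.22, adjusted p = 0.56). The windows of the other starts listed for Tnfrsf9 and Tnfrsf25 hold no match. Whether a match goes with a change under LPS was not tested. The windows of Tnf and Lta do not hold them, which says only that these letters are not in those bases. The letters bound by STAT6, TTC, any 4 bases and GAA, stood in 4 family windows (those of Lta and Ltbr and 2 of Tnfsf13b), 11.8% against 5.85% of all. The 2 windows of Tnfsf13b overlap and hold the same match, so that it is counted in both, and 3 of the 30 genes held these letters. The core of the interferon response element, GAAA, any 2 bases and GAAA, stood in 4 (Tnfrsf14, Tnfrsf17, Tnfrsf1b and Tnfsf13b), 11.8% against 2.98%. Such matches are descriptions of sequence and not binding sites.

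TRAIL (Tnfsf10), which binds death receptors, was at -1.46 and -1.56 in control, -3.66 and -3.36 with IL-4, 1.15 and 1.27 with LPS and, not well above background, -6.82 and -6.41 in colony cells. The 4 groups lay far apart in that order: LPS, control, IL-4, colony cells. TRAIL rose 6.60-fold with LPS (log2 2.72 ± 0.17, adjusted p = 8.4e-05). Its mouse receptor Tnfrsf10b was at -2.12 and -2.03 in control, -1.99 and -2.12 with IL-4, -1.35 and -1.47 with LPS and 2.84 and 2.84 in colony cells. The receptor rose with LPS by 0.67 ± 0.08 (adjusted p = 0.0012, and 0.052 with median centring), while the control and IL-4 arrays overlapped. TL1A (Tnfsf15), the ligand of DR3, was at -1.78 and -1.63 in control, -3.09 and -3.16 with IL-4, -0.22 and -0.25 with LPS and -1.72 and -1.74 in colony cells. Its LPS arrays were the highest, 2.78-fold above control (log2 1.47 ± 0.08, adjusted p = 4.6e-05), and the colony and control arrays overlapped.

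4-1BB ligand (Tnfsf9), a costimulator of T cells, was at -0.11 and -0.30 in control, -0.93 and -0.96 with IL-4, 2.49 and 2.40 with LPS and 1.47 and 1.54 in colony cells. It rose 6.27-fold with LPS (log2 2.65 ± 0.09, adjusted p = 1e-05). Its receptor Tnfrsf9 was at 5.06 and 5.02 in control, 5.46 and 5.81 with IL-4, 7.91 and 8.35 with LPS and 2.72 and 2.72 in colony cells, by the brighter of its 2 probes. The receptor rose 8.52-fold with LPS (log2 3.09 ± 0.18, adjusted p = 6.5e-05), so both partners of this axis were higher with LPS and no groups overlapped in either. OX40 ligand (Tnfsf4), a further costimulator, was at -4.80 and -4.17 with LPS and not well above background elsewhere, at -7.88 and -7.20 in control, -7.83 and -8.08 with IL-4 and -8.28 and -8.30 in colony cells. It was at least 2.91-fold higher with LPS than in control (adjusted p = 0.00046), but with normexp the bound was 1.02-fold and the call was lost (log2 0.11, adjusted p = 0.58). OX40 ligand, like Lta, passed the filter on dim probes through the LPS arrays alone. OX40 itself (Tnfrsf4) rose by 0.61 ± 0.13 (adjusted p = 0.012), a call lost without control replicate 2 (0.50, adjusted p = 0.059).

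TNFR2 (Tnfrsf1b), the TNF receptor without a death domain, was at 4.31 and 4.22 in control, 4.61 and 4.83 with IL-4, 5.95 and 6.13 with LPS and 0.77 and 0.94 in colony cells. It rose 3.42-fold with LPS (log2 1.77 ± 0.12, adjusted p = 0.00011). TNFR1 (Tnfrsf1a), the receptor with the death domain, was at 5.16 and 5.06 in control, 5.0 and 5.08 with IL-4, 5.29 and 5.40 with LPS and 4.77 and 4.78 in colony cells. Its levels spanned well under 1 log2 unit over all 8 arrays, with the control and IL-4 arrays overlapping. The LPS call for TNFR1 was marginal (0.23 ± 0.08, adjusted p = 0.049). It was lost without any 1 of the 8 arrays (adjusted p from 0.058 to 0.18), and quantile normalization turned the value to -0.03 (adjusted p = 0.67). The other TNFR1 probe, which does not represent the gene, was higher with LPS by 0.46 ± 0.09 (adjusted p = 0.0099).

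Further members rose with LPS. BAFF (Tnfsf13b), the survival factor of B cells, was at -1.69 and -1.96 in control, -2.25 and -2.23 with IL-4, -0.20 and -0.15 with LPS and -0.57 and -0.52 in colony cells, and rose 3.13-fold (log2 1.65 ± 0.10, adjusted p = 8.4e-05). CD27, the receptor of CD70, was at -4.72 and -4.71 in control, -4.40 and -4.33 with IL-4, -3.28 and -3.39 with LPS and -5.32 and -5.63 in colony cells, and rose 2.61-fold (log2 1.39 ± 0.12, adjusted p = 0.00027). LPS arrays were the highest for both genes, and the 4 groups did not overlap. The death receptor Fas rose 2.75-fold (log2 1.46 ± 0.10, adjusted p = 0.00013). Fas ligand (Fasl) was well above background with LPS alone, at -5.12 and -5.10, against -5.98 and -6.02 in control, -6.19 and -7.31 with IL-4 and -7.05 and -8.50 in colony cells. The Fasl difference from control was not called (adjusted p = 0.23). The other members called higher with LPS (Tnfrsf22, Tnfrsf23, Tnfrsf26, Tnfrsf11a and Tnfrsf12a) rose by 0.46 to 1.08. Among these, the call for Tnfrsf12a (0.46 ± 0.10, adjusted p = 0.013) was lost without LPS replicate 1 (adjusted p = 0.051) and with median centring (adjusted p = 0.2).

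LPS lowered 7 members. LIGHT (Tnfsf14), a ligand of HVEM and LTBR, was at -0.88 and -0.97 in control, -2.73 and -2.66 with IL-4, -3.28 and -3.19 with LPS and 1.08 and 1.11 in colony cells. By the probes used, LIGHT was the lone ligand called lower, 4.97-fold (log2 -2.31 ± 0.07, adjusted p = 8.4e-06). The probe of TWEAK (Tnfsf12) that does not represent its gene was lower too (-2.54 ± 0.11, adjusted p = 3.1e-05). BCMA (Tnfrsf17), a receptor of BAFF and APRIL, was at -3.19 and -4.13 in control and -3.79 and -3.83 with IL-4, and was not well above background with LPS (-8.42 and -8.09) or in colony cells (-7.43 and -8.53). It was at least 5.58-fold lower with LPS than in control (adjusted p = 0.00048, at least 2.10-fold with normexp), and its control and IL-4 arrays overlapped. GITR (Tnfrsf18), a costimulatory receptor, was at -4.43 and -4.12 in control, -2.84 and -2.77 with IL-4, -0.96 and -0.97 in colony cells and, not well above background, -6.31 and -5.92 with LPS. It was at least 3.45-fold lower with LPS (adjusted p = 0.00033, at least 1.65-fold with normexp). The 4 groups of GITR did not overlap.

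The remaining genes that fell were receptors. TROY (Tnfrsf19) was at -4.08 and -4.15 in control, -4.30 and -4.41 with IL-4, -5.62 and -5.84 with LPS and -3.62 and -3.70 in colony cells. On LPS replicate 2 its probe did not stand well above background, so that the fitted fall of 1.62 ± 0.10 on the log2 scale (adjusted p = 8.2e-05) rests in part on a dim array, and with normexp it was -0.62 (adjusted p = 0.0019). The mean of its 2 probes gave -0.33 (adjusted p = 0.51), the other probe having the opposite sign. DR6 (Tnfrsf21), a death receptor, fell by 1.05 ± 0.08 (adjusted p = 0.00019). TACI (Tnfrsf13b), a receptor of BAFF and APRIL, was at 3.20 and 3.11 in control, 2.77 and 2.78 with IL-4, 2.45 and 2.50 with LPS and -0.02 and 0.08 in colony cells, and fell by 0.68 ± 0.07 (adjusted p = 0.00065). The mean of its 3 probes gave -0.18 (adjusted p = 0.1). Osteoprotegerin (Tnfrsf11b), the decoy of RANKL, fell by 0.75 ± 0.18 (adjusted p = 0.016), a call lost without control replicate 1 (-0.68, adjusted p = 0.076). Thus BAFF rose while its receptors TACI, by the probe used, and BCMA fell. Its other receptor, BAFFR (Tnfrsf13c), was not called, at 0.35 ± 0.27 (adjusted p = 0.32, interval -0.33 to 1.02). Tnfrsf14, Tnfrsf25, Tnfsf12, Tnfsf18, Tnfsf8 and Fasl were not called either by the probes used, with log2 fold changes from -0.16 to 0.89.

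**Figure D2:**
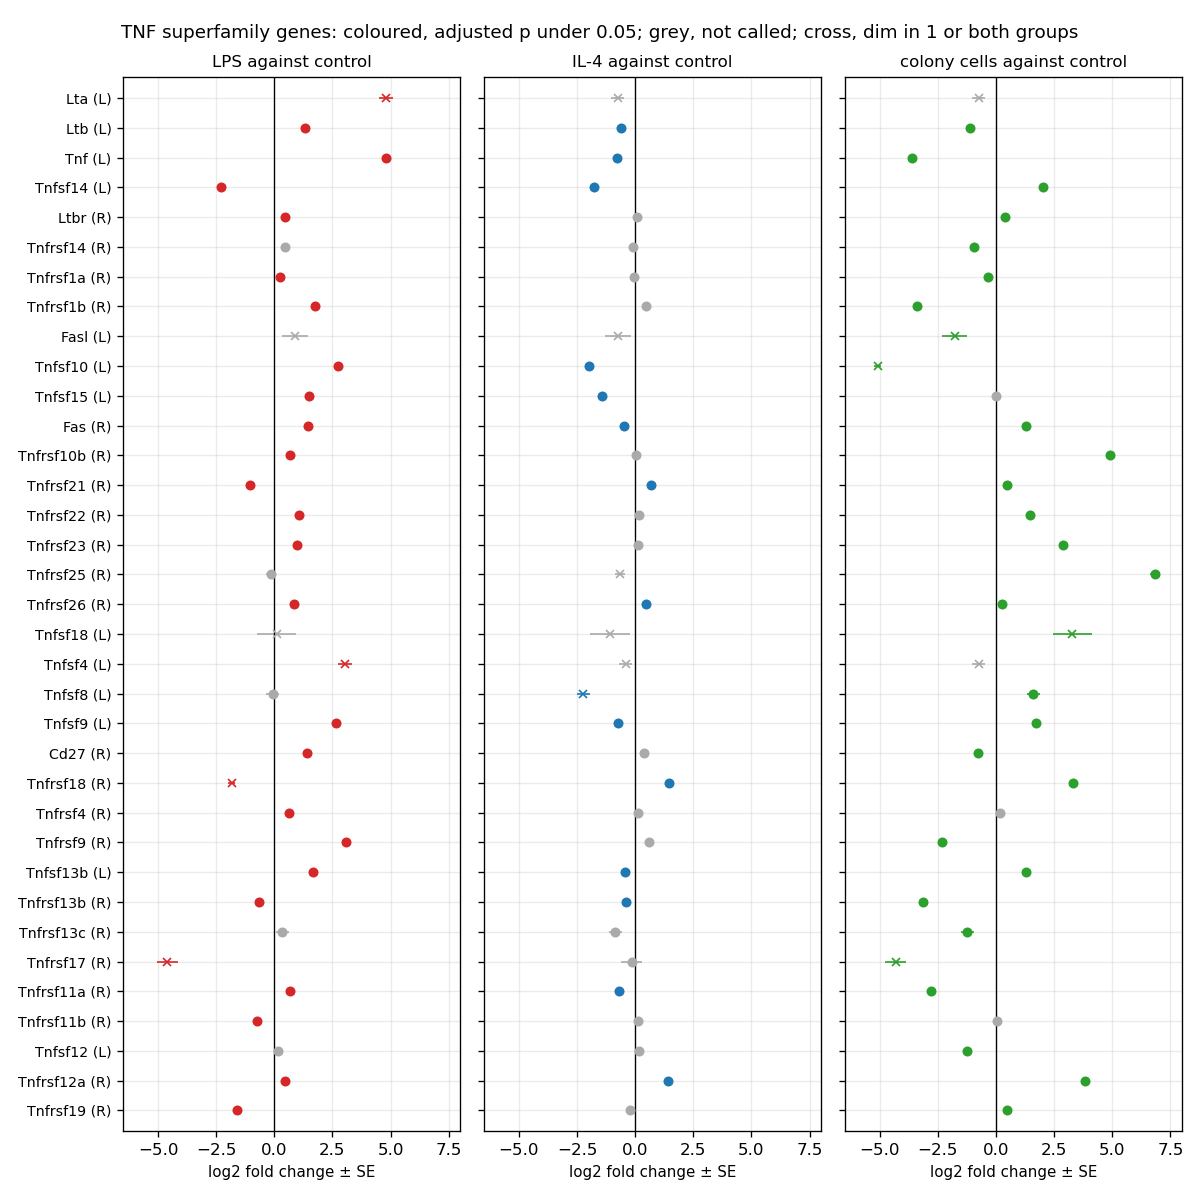
Log2 fold change against control (x axis, ± standard error) of the 35 genes in the LPS, IL-4 and colony groups, 2 arrays against 2. Coloured marks passed an adjusted p under 0.05, grey ones did not, and crosses mark genes not well above background in 1 or both groups, whose fitted value is not a bound. LPS raised 21 genes, IL-4 lowered 11, and colony cells differed most widely, with Tnfrsf25 fitted at 6.84 (4.2 with normexp).

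IL-4 moved fewer members, and mostly down. Of 35 genes 4 were higher and 11 lower than in control, where 19.0% of all genes were called, 9.87% higher and 9.18% lower. The higher count was thus near the share of all genes. The median log2 fold change was -0.24 over the family and -0.01 over all genes. All 8 ligands called were lower (of 13 tested), among them TRAIL, LIGHT, TL1A and, not well above background with IL-4, CD30 ligand, and the 4 genes called higher were receptors (of 22 tested, 3 of which fell). The arrays did not overlap in 29 of 35 genes, against 61.4% of all genes. The count of lower calls is sensitive: leaving out either IL-4 array (replicate 1 or replicate 2) gave 6, and median centring 7. Calls over all genes were sensitive too, 5049 in the full fit, 2186 without IL-4 replicate 1, 1978 without replicate 2 and 2667 with median centring.

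CD30 ligand (Tnfsf8) was at -4.42 and -3.91 in control, -4.59 and -3.88 with LPS, -2.53 and -2.61 in colony cells and, not well above background, -6.51 and -6.30 with IL-4. It was at least 3.80-fold lower with IL-4 than in control (adjusted p = 0.0049, at least 1.55-fold with normexp). The control and LPS arrays of CD30 ligand overlapped. TRAIL fell 3.99-fold with IL-4 (log2 -2.0 ± 0.17, adjusted p = 0.0015), LIGHT 3.42-fold (log2 -1.77 ± 0.07, adjusted p = 0.00014) and TL1A 2.67-fold (log2 -1.42 ± 0.08, adjusted p = 0.00035). Smaller falls were those of Tnf, by 0.78 ± 0.09 (adjusted p = 0.0035), 4-1BB ligand, by 0.74 ± 0.09 (adjusted p = 0.0046), and RANK (Tnfrsf11a), by 0.70 ± 0.12 (adjusted p = 0.013). RANK was at 3.62 and 3.82 in control, 3.04 and 3.0 with IL-4, 4.33 and 4.49 with LPS and 1.02 and 0.81 in colony cells, with no overlap of groups.

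GITR rose 2.77-fold with IL-4 (log2 1.47 ± 0.16, adjusted p = 0.0034), and the TWEAK receptor Fn14 (Tnfrsf12a) 2.63-fold (log2 1.40 ± 0.10, adjusted p = 0.00093). Fn14 was at 1.23 and 1.01 in control, 2.51 and 2.53 with IL-4, 1.60 and 1.55 with LPS and 4.86 and 5.02 in colony cells, and its 4 groups did not overlap. DR6 rose by 0.66 ± 0.08 (adjusted p = 0.0047) and Tnfrsf26, a mouse receptor related to the decoys, by 0.48 ± 0.07 (adjusted p = 0.0068). TNFR2 and 4-1BB missed the threshold, at 0.46 ± 0.12 (adjusted p = 0.052) and 0.59 ± 0.18 (adjusted p = 0.077), although their IL-4 arrays lay above the control arrays. The calls of Ltb (-0.61), Fas (-0.50), Tnfrsf13b (-0.38), Tnfrsf11a and Tnfrsf26 were each lost when either IL-4 array, replicate 1 or replicate 2, was left out (adjusted p from 0.053 to 0.13). Those of Fas and Tnfrsf13b were lost without control replicate 1 too (adjusted p of 0.085 and 0.067), and that of Tnfrsf11a without control replicate 2 (adjusted p = 0.063). The call of BAFF (-0.42 ± 0.10, adjusted p = 0.042) was lost in each fit that left out an array except control replicate 2 (adjusted p from 0.062 to 0.17).

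Because the 2 stimulated groups share their control arrays, they were compared with each other directly. With LPS 23 of 35 genes were higher than with IL-4 and 8 lower, where 52.6% of all genes were called, 26.8% higher and 25.8% lower. The arrays did not overlap in 33 of 35 genes, against 76.6% of all genes. Wide gaps were those of Tnf (48.4-fold, log2 5.60 ± 0.09, adjusted p = 9.7e-07) and TRAIL (26.4-fold, log2 4.72 ± 0.17, adjusted p = 1.1e-05). 4-1BB ligand was 10.5-fold higher with LPS (log2 3.39 ± 0.09, adjusted p = 4.3e-06), TL1A 7.43-fold (log2 2.89 ± 0.08, adjusted p = 4.4e-06) and Lta at least 14.7-fold (adjusted p = 4.7e-05, at least 2.81-fold with normexp). In the other direction, GITR was at least 9.57-fold lower with LPS (adjusted p = 3.6e-05, at least 2.31-fold with normexp), BCMA at least 5.02-fold (adjusted p = 0.00058, at least 1.83-fold with normexp) and DR6 3.26-fold (log2 -1.70 ± 0.08, adjusted p = 3.1e-05). Fn14 was lower with LPS by 0.94 ± 0.10 (adjusted p = 0.00082). LIGHT, which fell against control with both stimuli, was lower with LPS than with IL-4 by 0.54 ± 0.07 (adjusted p = 0.0019).

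Colony cells differed from control macrophages in most of the family, as they did in most of all genes. Of 35 genes 16 were higher and 14 lower, where 71.4% of all genes were called, 24.7% higher and 46.7% lower. The lower count was below the share of all genes. The median log2 fold change was 0.05 over the family and -0.35 over all genes. Of 22 receptors tested 11 were higher and 9 lower, and of 13 ligands 5 were higher and 5 lower. The higher receptors were led by DR3, the TRAIL receptor, Fn14, GITR and Tnfrsf23. Of these, DR3 passed the filter on dim probes through colony cells alone, so its call is not independent of that filter. TRAIL, Tnf, TNFR2, TACI and RANK were among the lower. In 33 of 35 genes the arrays did not overlap, near the share of all genes (87.5%). With median centring the counts were 12 higher and 16 lower, at a median of -0.09 against -0.50 over all genes.

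Other cell types' markers moved in the same comparison. The log2 summed level of 7 mesothelial markers (Msln, Upk3b, Wt1, Lrrn4, Upk1b, Krt8 and Krt18) was -4.69 to -4.23 in control, where 0 of 7 were well above background on both arrays, and 8.35 to 8.38 in colony cells, where 7 of 7 were. For 7 fibroblast and stromal markers it was -0.98 to -0.66 (3 of 7) and 7.93 to 7.96 (7 of 7), with Dcn, Pdgfra, Lum and Postn not well above background in control. For 7 mast cell and basophil markers it was -1.03 to -0.56 (1 of 7) and 2.71 to 2.72 (7 of 7). The 7 markers common to leukocytes had 8.13 to 8.25 and 5.14 to 5.18, and the endothelial list 5.08 to 5.27 and 3.86 to 3.95. Of the 8 endothelial markers, 5 were well above background on both arrays in control and 5 in colony cells. Those not well above background were Tek, Tie1 and Emcn in control and Cdh5, Tie1 and Emcn in colony cells. Of the 9 macrophage markers all but Itgam (0.46) were called lower in colony cells. The B cell list was at 0.63 to 0.73 in control and -1.80 to -1.73 in colony cells. The T cell list was at 3.78 to 3.82 and 2.75 to 2.76, in the same order. The NK cell list had 0.01 to 0.18 and -0.3 to -0.09, and the erythroid list 0.15 to 0.27 and -1.16 to -1.02. The neutrophil list changed less, at 5.53 to 5.80 and 5.47 to 5.50. The part of these cells in the family's levels was not tested. In such bulk RNA, fewer cells of a type and less RNA per cell cannot be told apart.

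DR3 (Tnfrsf25), the death domain receptor of TL1A (chr4:151494160-151494219), was at 1.25 and 1.20 in colony cells. In control it was at -5.47 and -5.77, on 1 of 2 arrays well above background, with LPS at -6.08 and -5.48, likewise on 1 of 2, and with IL-4 at -6.37 and -6.17, on neither. It was thus bright in colony cells alone and passed the filter on dim probes through them. The fitted difference from control was 6.84 ± 0.22 (adjusted p = 3.5e-06) and 4.2 with normexp. DR3 was at least 160-fold higher than with IL-4 (adjusted p = 2.6e-06, at least 22.3-fold with normexp). TL1A, its ligand, was not called against control (-0.02 ± 0.08, adjusted p = 0.81, interval -0.22 to 0.17).

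The TRAIL receptor Tnfrsf10b was 30.1-fold higher in colony cells (log2 4.91 ± 0.08, adjusted p = 6.2e-07), while TRAIL itself was at least 28.0-fold lower (adjusted p = 3.9e-06, at least 5.80-fold with normexp). The decoy receptor Tnfrsf23 was at 0.47 and 0.47 in control, 0.55 and 0.67 with IL-4, 1.39 and 1.54 with LPS and 3.34 and 3.37 in colony cells, where it was 7.38-fold higher than in control (log2 2.88 ± 0.08, adjusted p = 2.5e-06). Its neighbour Tnfrsf22 was 2.79-fold higher (log2 1.48 ± 0.12, adjusted p = 0.00014) and Fas 2.43-fold (log2 1.28 ± 0.10, adjusted p = 0.00012). Thus 4 of the TRAIL and Fas receptors were higher in colony cells. Fasl, though called lower, was not well above background in either group.

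Both partners of the GITR axis were called higher. The ligand passed the filter on dim probes through colony cells alone, so its call is not independent of that filter. GITR was 9.92-fold above control (log2 3.31 ± 0.16, adjusted p = 1.7e-05). GITR ligand (Tnfsf18) was at -3.30 and -2.94 in colony cells, and at -6.08 and -6.72 in control, -7.08 and -7.88 with IL-4 and -7.60 and -4.99 with LPS, where only 1 LPS array was well above background. It was at least 7.47-fold higher than in control (adjusted p = 0.015, at least 1.60-fold with normexp). That call was lost without control replicate 2 (adjusted p = 0.079), colony replicate 1 (0.054) or colony replicate 2 (0.071).

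Fn14 was 14.1-fold higher than in control (log2 3.82 ± 0.10, adjusted p = 2e-06), and its ligand TWEAK (Tnfsf12) 2.37-fold lower (log2 -1.24 ± 0.09, adjusted p = 8.2e-05). LIGHT was 4.06-fold higher (log2 2.02 ± 0.07, adjusted p = 5.4e-06) and its receptor HVEM (Tnfrsf14) lower by 0.93 ± 0.18 (adjusted p = 0.0054). 4-1BB ligand was 3.27-fold higher (log2 1.71 ± 0.09, adjusted p = 2.2e-05), CD30 ligand 3.03-fold (log2 1.60 ± 0.28, adjusted p = 0.0031) and BAFF 2.43-fold (log2 1.28 ± 0.10, adjusted p = 0.00012). CD30, the receptor of CD30 ligand, was not tested. BAFF was higher while TACI was 8.75-fold lower (log2 -3.13 ± 0.07, adjusted p = 1.2e-06), BAFFR 2.34-fold lower (log2 -1.23 ± 0.27, adjusted p = 0.0083) and BCMA at least 6.34-fold lower (adjusted p = 0.00035, at least 2.45-fold with normexp).

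Tnf was 12.3-fold lower in colony cells than in control (log2 -3.62 ± 0.09, adjusted p = 1.3e-06) and 348-fold lower than with LPS (log2 -8.44 ± 0.09, adjusted p = 2.6e-07). TNFR2 was lower than in control (log2 -3.41 ± 0.12, adjusted p = 4.8e-06) and RANK 7.00-fold (log2 -2.81 ± 0.12, adjusted p = 9.4e-06). TNFR1 differed by -0.34 ± 0.08 (adjusted p = 0.01), and its other probe was not called (-0.07 ± 0.09, adjusted p = 0.51). The call for TNFR1 was lost without colony replicate 1 (adjusted p = 0.051), and quantile normalization turned the value to 0.09 (adjusted p = 0.22). The small rise of Tnfrsf26 (0.24 ± 0.07, adjusted p = 0.019) was lost without control replicate 1 or colony replicate 1 (adjusted p of 0.066 and 0.1), and that of TROY (0.45 ± 0.10, adjusted p = 0.0082) turned to -0.13 with normexp. Ltb was 2.17-fold lower (log2 -1.12 ± 0.10, adjusted p = 0.00017) and Cd27 1.69-fold (log2 -0.76 ± 0.12, adjusted p = 0.0019). DR6 (0.47 ± 0.08, adjusted p = 0.003) and Ltbr (0.40 ± 0.08, adjusted p = 0.0058) were slightly higher, and with median centring neither was called (adjusted p of 0.14 and 0.091). Osteoprotegerin (0.05 ± 0.18) and OX40 (0.17 ± 0.13) were not called, nor were Lta and OX40 ligand, which were not well above background in either group.

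Colony cells were also set against each stimulated group. Against IL-4, 15 genes were higher and 13 lower, where 71.7% of all genes were called (24.3% higher, 47.4% lower), and against LPS 12 were higher and 20 lower, where 76.5% were called (26.8% and 49.7%). The arrays did not overlap in 30 genes against IL-4 (89.5% of all genes) and in 33 against LPS (88.8%). LIGHT was 13.9-fold above the IL-4 group (log2 3.80 ± 0.07, adjusted p = 8.4e-07) and 20.2-fold above the LPS group (log2 4.34 ± 0.07, adjusted p = 4.3e-07). GITR was 3.58-fold above IL-4 (log2 1.84 ± 0.16, adjusted p = 0.00018), and Fn14 5.37-fold (log2 2.42 ± 0.10, adjusted p = 1e-05). The order of the group means was colony cells, IL-4, LPS and control for Fn14, and colony cells, IL-4, control and LPS for GITR.

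The probes of 8 genes with more than 1 measured probe did not always move alike. In each of them except Tnfrsf14, probes had opposite signs in at least 1 comparison. The starts of the probes are shown for the 2 genes in which both probes were called, with opposite signs, in the same comparison. Each probe is 60 bases long, and its first 30 are given 5′ to 3′ with its mm9 position.
Tnfrsf9 brighter probe, chr4:150319582-150319641: catagaccaatggtccagttaaaataactg
Tnfrsf9 other probe, chr4:150319101-150319160: cgcgcacctcatccaagtctcttctaacgc
Tnfsf12 brighter probe, chr11:69500342-69500401: tgggctcatcttaaggctgcccccttccta
Tnfsf12 other probe, chr11:69500528-69500587: tttgatgagggaaaggctgtctacctgaag
The other Tnfrsf9 probe was not well above background in control or with IL-4. Against control it was at least 9.79-fold higher with LPS (adjusted p = 0.00026, at least 1.79-fold with normexp) and at least 48.8-fold higher in colony cells (adjusted p = 2.5e-05, at least 6.03-fold with normexp), where the brighter probe had -2.32 ± 0.18. Both probes were higher with LPS, and in colony cells they had opposite signs. The direction of 4-1BB in colony cells is therefore that of the probe chosen. For TWEAK the other probe was at -2.54 ± 0.11 with LPS (adjusted p = 3.1e-05), where the brighter probe had 0.16 ± 0.09, and both were lower in colony cells (-2.21 ± 0.11 and -1.24 ± 0.09). Between colony cells and LPS they had opposite signs, 0.32 ± 0.11 (adjusted p = 0.039) and -1.41 ± 0.09 (adjusted p = 4.3e-05).

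**Figure D3:**
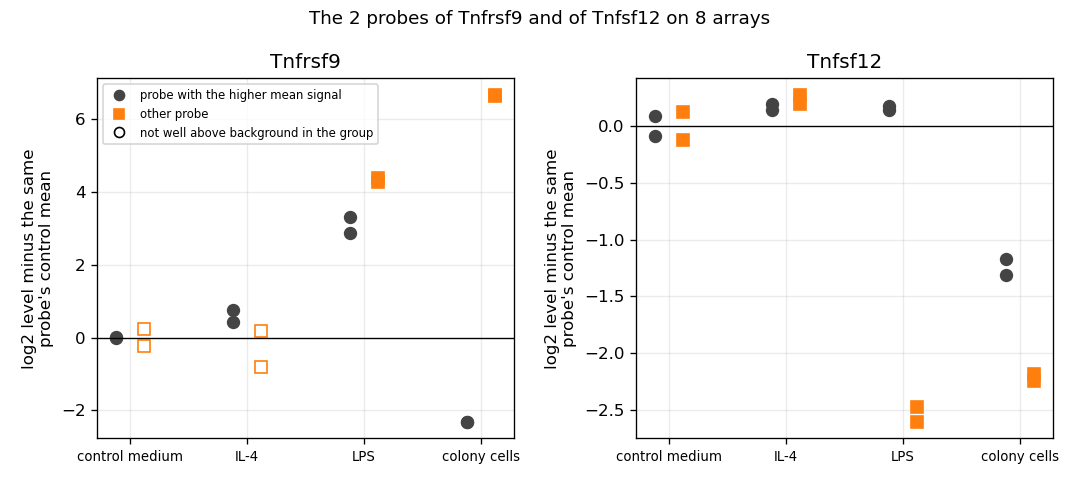
Level of each of the 2 probes of Tnfrsf9 and Tnfsf12 on 8 arrays, as log2 units above the same probe's mean in control (y axis), by group (x axis). Open marks are groups in which the probe was not well above background. The Tnfrsf9 probes part in colony cells (-2.32 and, fitted against a control group not well above background, 6.66) and the Tnfsf12 probes with LPS (0.16 and -2.54).

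The other genes of this kind differed in size, in sign or in both. In colony cells the 3 TACI probes gave -3.13, -1.83 and -0.40, and the HVEM probes -0.93 and -2.70. With LPS the TACI probes gave -0.68, which was called, and -0.07 and 0.23, which were not. The HVEM probe that does not represent the gene was higher with LPS (1.04 ± 0.14, adjusted p = 0.0019), where the representing probe was not called (0.47 ± 0.18, adjusted p = 0.076). That of TROY, with a standard error of 0.85, gave 0.96 with LPS and was not called, and between colony cells and LPS it gave -0.54 where the probe used gave 2.07. Tnfrsf22 and Tnfrsf23 are close paralogs, and whether a probe of one binds RNA of the other was not tested. They had a further probe each, at 0.87 ± 0.16 and 2.06 ± 0.17 in colony cells, both called higher. Opposite signs also stood between the probes of Tnfrsf22 for colony cells against LPS (0.41 and -0.23) and of TNFR1 for colony cells against IL-4 (-0.26 and 0.01). In each of these pairs the second value was not called. The probes of Tnfrsf23 had opposite signs for IL-4 (0.14 and -0.32), where neither was called (adjusted p = 0.33 and 0.28).

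Many of these genes lie in groups on the chromosomes: 21 of the 38 had a neighbour from the family within 500 kb, in 8 clusters. In the cluster of Tnfrsf26, Tnfrsf22 and Tnfrsf23 (57.8 kb on chromosome 7) all 3 genes were higher with LPS (0.85, 1.08 and 0.99) and in colony cells (0.24, 1.48 and 2.88). Neighbours did not always move together. Tnfrsf4 and Tnfrsf18, whose probes are 12.4 kb apart on chromosome 4, parted with LPS, the former higher by 0.61 and the latter at least 3.45-fold lower, and were at 0.17 and 3.31 in colony cells, where the former was not called. Tnfsf9 and Tnfsf14 (chromosome 17, 82.2 kb with Cd70 between them) had 2.65 and -2.31 with LPS, and 1.71 and 2.02 in colony cells. Cd27, Ltbr and Tnfrsf1a (129.2 kb on chromosome 6) were all called higher with LPS, at 1.39, 0.47 and 0.23, with the limits given above for the last.

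**Figure D4:**
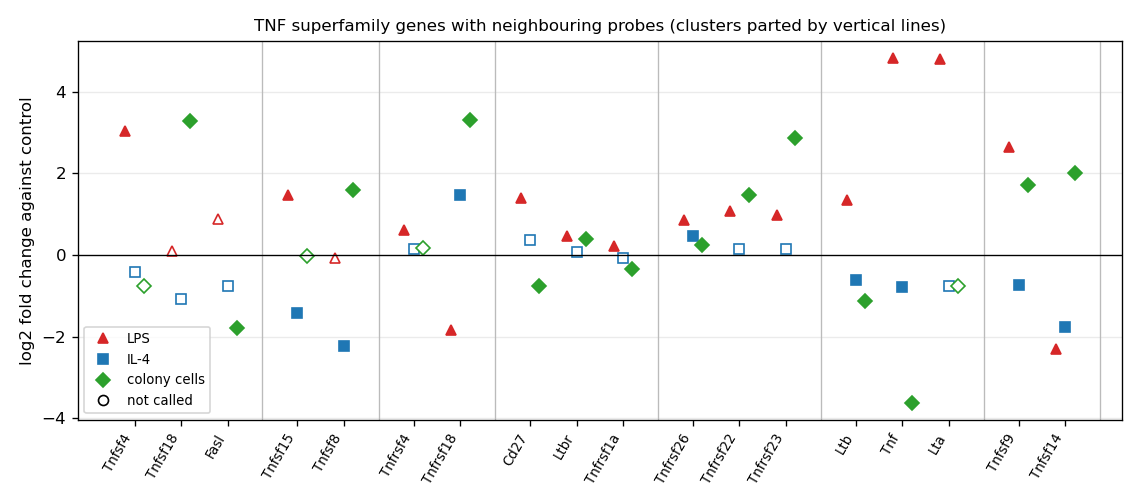
Log2 fold change against control (y axis) of family genes whose probes lie within 500 kb of each other, in order along the chromosome, with vertical lines between clusters. Filled marks passed an adjusted p under 0.05 and open ones did not. The 3 genes around Tnf rose with LPS (1.34, 4.82 and 4.80, the last a fitted value against a group not well above background), while Tnfrsf4 and Tnfrsf18 parted.

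Genes for the proteins that carry the receptors' signal were read from a list of 32. LPS raised 20 and lowered 5, against 28.9% and 25.8% of all genes, with a median log2 fold change of 0.30 against 0.07 over all genes. Traf1, a TRAF adaptor and NF-kB target, rose by 5.96 ± 0.11 (adjusted p = 2.1e-06), Cflar, an inhibitor of caspase-8, by 2.83 ± 0.17 (adjusted p = 8.2e-05), Tnfaip3 (A20), a brake on NF-kB, by 2.44 ± 0.12 (adjusted p = 3.2e-05), and Nfkbia, the inhibitor that holds NF-kB in the cytosol, by 2.34 ± 0.11 (adjusted p = 2.7e-05). IL-4 raised 3 and lowered 10, against 9.87% and 9.18% of all genes (median -0.11 against -0.01), so that the higher count was near the share of all genes. Ripk3, the kinase of necroptosis, rose by 1.72 ± 0.07 (adjusted p = 0.00014), Traf5 by 1.51 ± 0.07 (adjusted p = 0.0002) and Ikbkg, the regulatory subunit of the IkB kinase, by 0.80 ± 0.09 (adjusted p = 0.004), while Relb, of the alternative NF-kB pathway, fell by 0.72 ± 0.08 (adjusted p = 0.0039).

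In colony cells 3 of these 32 genes were higher and 24 lower, against 24.7% and 46.7% of all genes (median -0.76 against -0.35). Traf4 was higher by 6.65 ± 0.17 (adjusted p = 1.8e-06). Birc3 (cIAP2), a ubiquitin ligase bound to TRAF2, changed by -3.27 ± 0.08 (adjusted p = 1.5e-06), Traf1 by -2.28 ± 0.11 (adjusted p = 1.5e-05) and Otulin, which removes linear ubiquitin chains, by -2.14 ± 0.08 (adjusted p = 6.5e-06). The receptors were thus split between higher and lower in colony cells (11 and 9 of 22), and most of the adaptors were lower.

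**Figure D5:**
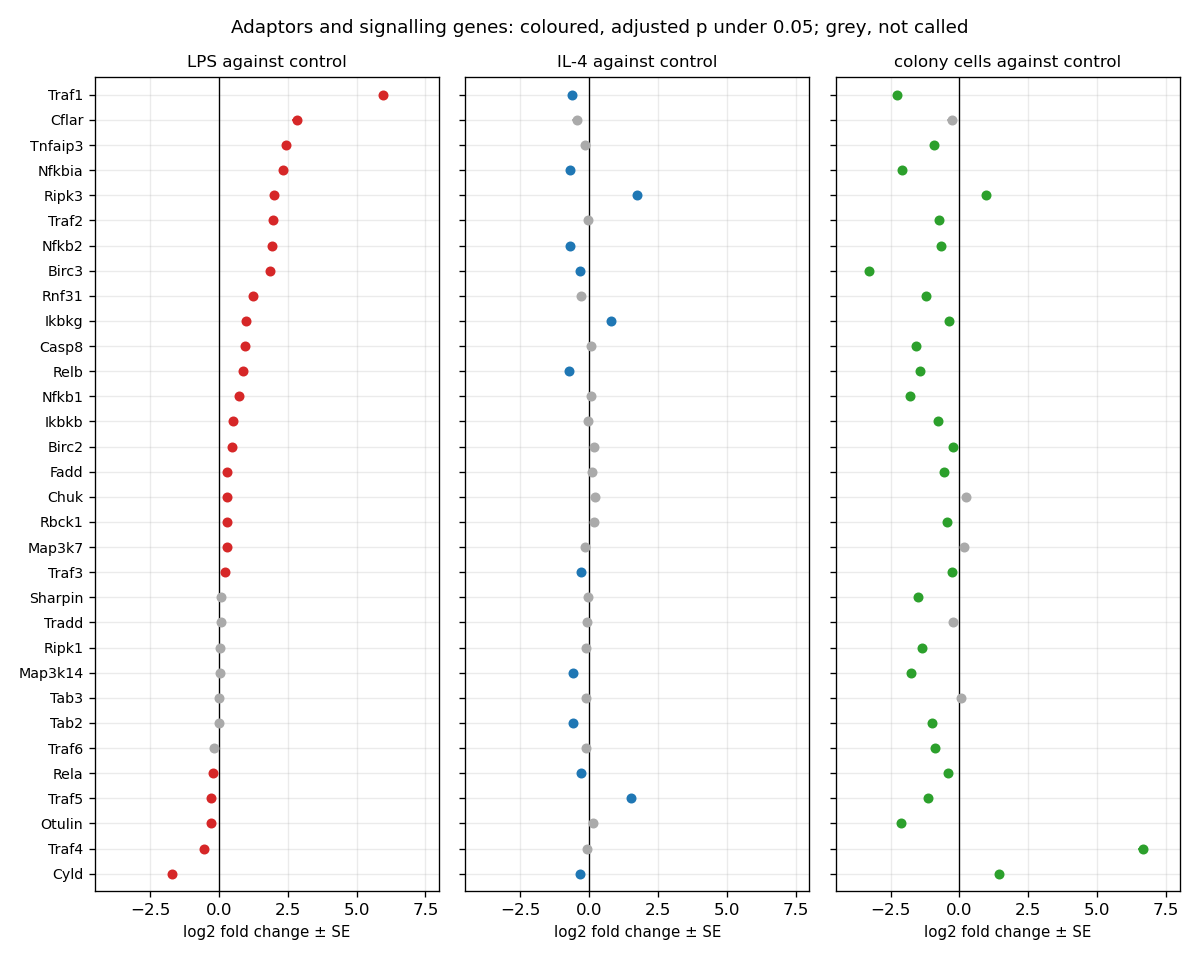
Log2 fold change against control (x axis, ± standard error) of 32 adaptor and signalling genes of the TNF receptors, ordered by their change with LPS. Coloured marks passed an adjusted p under 0.05. Traf1 rose most with LPS (5.96) and Traf4 stood apart in colony cells (6.65).

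Relatives of the family that the naming rule misses, and genes of ligand shedding, were read from further lists. Of 5 relatives tested of 7 listed, LPS raised 4, IL-4 1 (Cd40, 0.29 ± 0.07, adjusted p = 0.036), and in colony cells 1 was higher and 2 lower, where 54.7%, 19.0% and 71.4% of all genes were called in either direction, so that the IL-4 and colony counts were near or below those shares. CD40, the receptor through which T cells license macrophages, rose with LPS by 3.47 ± 0.07 (adjusted p = 2.4e-06) and was lower in colony cells (-2.33 ± 0.07, adjusted p = 2.5e-06). Eda2r, a receptor of ectodysplasin, exceeded its control level in colony cells at least 13.3-fold (adjusted p = 2.4e-05, at least 2.07-fold with normexp). Of 5 shedding genes LPS raised 1 and lowered 2, IL-4 raised 1 and lowered 1, and colony cells had 2 higher and 3 lower, beside the same shares of all genes. ADAM17, the protease that cuts TNF and its receptors from the membrane, was lower in colony cells (-2.40 ± 0.08, adjusted p = 4.9e-06), and Timp3, its inhibitor, was higher (10.49 ± 0.54, adjusted p = 2.1e-05). Rhbdf2 (iRhom2), which brings ADAM17 to the surface of macrophages, rose with LPS (1.65 ± 0.09, adjusted p = 4.5e-05) and with IL-4 (0.66 ± 0.09, adjusted p = 0.006) and was lower in colony cells (-0.93 ± 0.09, adjusted p = 0.00022). Its relative Rhbdf1 went the other way in each, at -2.57 ± 0.08 (adjusted p = 8.9e-06), -1.04 ± 0.08 (adjusted p = 0.0012) and 2.62 ± 0.08 (adjusted p = 3.4e-06).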

How the data were processed

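Total RNA was measured on 1-colour (Cy3) Agilent arrays, 8 in all, 2 for each of 4 groups named by the labels, on 1 slide and in 1 scan. The deposited scanner files hold spot intensity, which per the file headers Agilent Feature Extraction 10.7.3.1 background-subtracted and did not scale between arrays. Their other deposited columns, 0 or 1 per spot, mark per the file headers spots well above background, uneven or outlying. A deposited value table on the log2 scale, in which each column followed the log2 signal of its array (lowest Pearson r 0.999964 across probes, column medians 2.53 to 2.96), was an alternative. Its scaling constant and the rule behind its 34119 rows are not given in the sources used here. Partek 6.4 and RMA stand in the submitters' processing notes with no role.

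Here uneven and outlying spots were dropped, intensity was put on the log2 scale, each array's 75th percentile was subtracted and spots of a probe were averaged. Dim probes were left out: 39411 probes stood well above background on each array of some group and were kept. The kept probe with the highest mean over all arrays represented its gene (26504 genes, of which 37 lacked a value on an array). Of the 55681 probe names, 26762 were matched through a transcript, 3819 through a symbol and 639 through a synonym of the RefSeq gene table (GRCm38.p6). A matched name could stay as it was, and no family name changed. A readthrough transcript of Tnfsf12 and Tnfsf13 lies outside the rule, and Tnfsf13 was not analysed here. Probe positions come from the array files and are on mm9, for which no annotation was used, so exons and UTRs are not given.

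One limma 3.58.1 model in R 4.3.3 held 4 group means over all 8 arrays (4 residual and 1.57 prior degrees of freedom), with Benjamini-Hochberg adjustment over all genes and calls at an adjusted p under 0.05. The number of arrays limits the precision, and an exact two-sided permutation test of 2 against 2 cannot go below p = 0.333. Every value after ± is the standard error of a log2 fold change. The code was tested on simulated data. Values on every array are given for members well above background in their highest group whose group means differ by at least 2 log2 units, and for Tnf, Tnfrsf1a and Tnfrsf1b, 25 in all. Of each list up to 4 called genes with the largest change are named per comparison. The members, lists and tests were chosen with earlier results of these data known. Alternatives were normexp (offset 50), quantile and median scaling, other filters, the mean of a gene's probes, other moderation, a replicate block, the deposited table and each array left out.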

Additional observations from a re-analysis of the deposited data

Results flagged for a closer look

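The probe of Tnfrsf9 (4-1BB) that does not represent the gene gave a signal that the comparisons of the report do not use. It was not well above background in control macrophages, against which it was at least 9.79-fold higher with LPS and at least 48.8-fold higher in colony cells (fitted log2 values of 4.34 and 6.66, which are not bounds). The brighter probe of the gene had 3.09 ± 0.18 and -2.32 ± 0.18. The difference between the probes was not tested.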

How the results depend on the processing

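Each of the 35 genes was refitted under up to 19 alternatives per comparison. Genes called in the full fit kept both direction and call in 491 of 524 such fits for LPS against control, 241 of 282 for IL-4, 537 of 561 for colony cells, 535 of 580 for LPS against IL-4, 506 of 525 for colony cells against IL-4 and 567 of 596 against LPS. Values called neither in the full fit nor in the alternative turned sign in 13, 8, 5, 3, 9 and 3 fits, in the same order, among them Tnfsf18 with LPS (0.1, down to -1.2). With only probes well above background on all 8 arrays, fewer family genes were tested (25), and the counts went from 7 to 4 lower for LPS against control, from 8 to 5 lower for LPS against IL-4 and from 12 to 7 higher for colony cells against LPS. The 11 genes lower with IL-4 became 7 with median centring, 7 with the deposited table and 6 to 12 when an array was left out. Over all genes the IL-4 calls went from 5049 to 2667 with median centring, 2566 with the deposited table, 3281 with only the 4 arrays compared, and 2186 and 1978 without IL-4 replicate 1 and 2. The share of called genes higher with LPS was 52.9%, and 42.5% with normexp and 38.5% with the deposited table. Values called in either fit that turned sign with quantile normalization were those of Tnfrsf1a (-0.03 for LPS, 0.09 for colony cells, 0.28 for colony cells against IL-4 and 0.12 against LPS), Fas (0.28) and Ltbr (0.55), both for colony cells against LPS. With the mean of a gene's probes they were Tnfsf12 (-1.19 for LPS), Tnfrsf13b (0.03 for LPS against IL-4) and Tnfrsf9 (2.17 for colony cells, 2.03 against IL-4, averages that include a probe not well above background in control or with IL-4), where the probes disagree, and with normexp, for colony cells, Tnfrsf11b (-0.41) and Tnfrsf19 (-0.13). Elsewhere the cause was not tested. Deviations of same-numbered replicates were little correlated over genes (from -0.16 to 0.05 over 6 pairs of groups). Such a correlation cannot show whether these samples share an animal or culture, which the labels do not say. With the replicate as a block, 20 genes were higher and 7 lower with LPS, 4 and 9 with IL-4, and 16 and 15 in colony cells. Genes near background, such as Lta, Tnfsf4 and Tnfrsf17, are limited by signal over background.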
